A study of Homo sapiens with 5 samples.

Results

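The genes described here are 40 genes of the ATF4 response and of amino acid supply, chosen by symbol from the deposited table of 25382 genes. They comprise 6 transcription factors, 8 stress effectors and secreted or surface targets, 9 enzymes of amino acid and one-carbon synthesis, 9 amino acid transporters, and 8 genes of tRNA charging and tRNA export. All 40 were in the table, and 37 of them were among the 13297 genes with enough reads to be tested. The samples were MDA-MB231 cells, an established human line of triple-negative breast cancer with mesenchymal features, grown in medium with serum, which had been divided by shear stress into 3 weakly adherent samples (6, 12 and 15 March) and 2 strongly adherent samples (6 and 15 March). The line was the same in all 5 and no other treatment is named in the labels. Separation by shear defined the groups, so a response to shear and a difference present before it cannot be told apart. Whether each sample was a culture of its own is not in the labels, so a p-value weighs a difference against the scatter of these 5 samples alone, and that scatter may be technical.

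ATF4 is the main effector of the integrated stress response. When kinases that sense missing amino acids, unfolded protein, haem shortage or viral RNA phosphorylate the initiation factor eIF2, general translation falls while translation of the ATF4 message rises. ATF4 protein then pairs with C/EBP factors and turns on genes that import amino acids, make serine, glycine, asparagine and proline, charge tRNAs and, under lasting stress, slow growth or promote death. Because this control acts largely on translation, the ATF4 message and the targets of ATF4 are separate readouts. In tumour cells the same genes supply building blocks for growth and cysteine for glutathione.

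The DNA element to which ATF4 and C/EBP pairs bind has the letters TGATGNAA, and it was looked for on both strands of RefSeq promoter windows (GRCh38.p14, 250 bases before to 50 after a gene's start). Of the 40 genes, 32 had a window, and 12 of those (37.5%) held the letters, against 4.46% of the 27305 genes with a window. The genes had been listed as ATF4 targets, so this share is a description of the list. SLC7A11 and PYCR1 are among the 8 genes with no window. The 6 stretches below are shown so that the matched element can be seen in genes of each of the 5 roles, and none of these genes passed the test described further on. Capitals mark the matched element, N being any base, and each stretch is read 5′ to 3′ on the strand given after its name.
ASNS, chr7:97872459-97872486, minus strand, 68 bases before the start: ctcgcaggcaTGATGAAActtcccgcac
CHAC1, chr15:40953252-40953279, minus strand, 209 bases before the start: ctggcaggagTGATGCAAcggcagggga
AARS, chr16:70289676-70289703, plus strand, 187 bases before the start: ctaacttggcTGATGCAActgcgagaaa
SLC38A1, chr12:46266503-46266530, minus strand, 4 bases before the start: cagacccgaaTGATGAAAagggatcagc
SLC1A5, chr19:46784894-46784921, minus strand, 97 bases before the start: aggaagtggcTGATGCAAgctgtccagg
JDP2, chr14:75427996-75428023, plus strand, 16 bases before the start: tagccggggcTGATGCAAcccgtcccgc
Among the 12 genes with the letters, 4 had a positive and 8 a negative log2 fold change (weakly minus strongly adherent), from -0.29 for JDP2 to 0.19 for SLC38A1. Their median was -0.03, and that of the 19 tested genes with a window that lacked the letters was -0.00088. A match shows letters in a window and no bound factor.

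Gene counts were 19630386 to 21707459 per library, and levels are given as CPM, counts scaled to the TMM-adjusted library sizes. Of the identity markers examined, only VIM, AXL, ESR1, PGR and PTPRC are given. The others, among them ERBB2 and the epithelial and stromal markers, are not listed, so the set as a whole is not judged. VIM lay between 2458 and 2746 CPM and AXL between 1306 and 1521 CPM. The hormone receptor genes ESR1 and PGR were at 0 in all libraries, where a count of 0 allows at most 3 reads, or 0.136 to 0.153 CPM. The leukocyte marker PTPRC stayed at or below 0.255 CPM. The groups differed in cell cycle genes, as the summed levels of 20 genes of G2 and M phase show, at 8061, 7850 and 5796 CPM in weakly adherent samples (6, 12 and 15 March) and 4875 and 4287 CPM in strongly adherent samples (6 and 15 March). The sum of 20 S phase genes was 3413 to 3576 CPM in weakly adherent samples and 4408 to 4464 CPM in strongly adherent samples. The part of cell cycle phase in the results on the 40 genes was not tested.

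Genes of the ATF4 programme gave almost no calls, and their log2 fold changes went both ways, more often negative. Of the 37 tested genes 1 passed edgeR's quasi-likelihood test (Benjamini-Hochberg adjusted p under 0.05), the cystine transporter SLC7A11, which was higher in weakly adherent cells. Over all 13297 genes 2.68% passed, 1.77% higher and 0.918% lower, so 1 of 37 is near the background. None of the 37 was called lower in edgeR, DESeq2 or limma-voom without the date in the model. Of the 37 genes, 15 had a positive and 22 a negative log2 fold change, with a median of -0.03 and a median size of 0.09, against -0.00054 and 0.10 over all genes tested. An unadjusted p under 0.05 was reached by 9 of the 37, or 24.3%, against 14.2% of all genes. All 3 weakly adherent libraries lay below both strongly adherent ones for 12 of the 37 genes, or 32.4%, against 14.5% of all genes, and above them for 4, or 10.8%, against 15.5%. In either direction this makes 16, or 43.2%, against 30.0% of all genes.

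**Figure D1:**
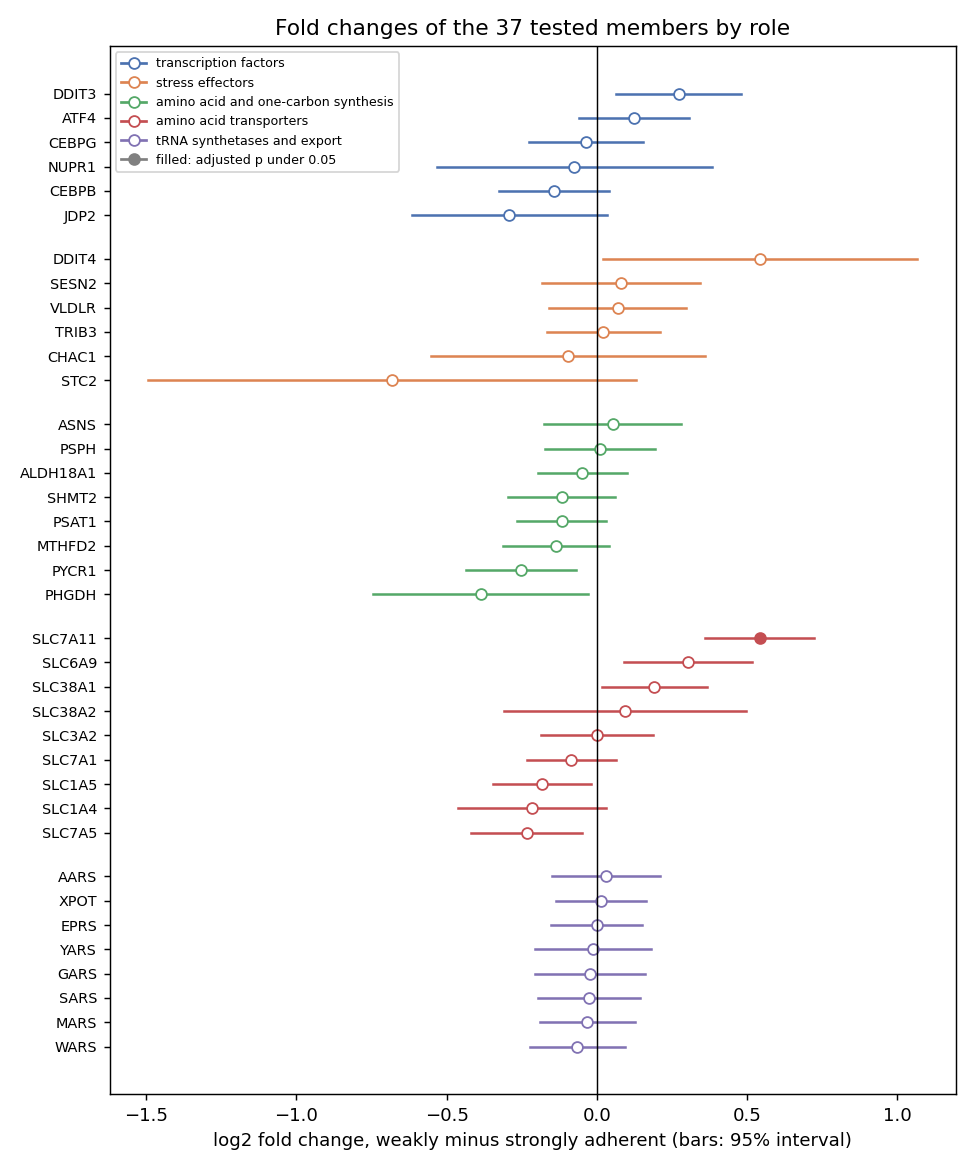
Log2 fold changes (x axis, weakly minus strongly adherent) of the 37 tested genes grouped by role, with bars for the 95% interval and a filled point where the adjusted p was under 0.05. SLC7A11 at 0.54 is the only filled point, and the intervals of the 8 genes of tRNA charging and export reach from -0.22 to 0.21 at most.

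Among the transporters, SLC7A11 stood out. It is the light chain of the antiporter that exchanges glutamate for cystine, the source of cysteine for glutathione, and a target of ATF4 and of the redox factor NRF2. SLC7A11 had 179, 196 and 178 CPM in the weakly adherent samples of 6, 12 and 15 March, against 118 and 135 CPM in the strongly adherent samples of 6 and 15 March. Every weakly adherent library was above both strongly adherent ones. Its means were 184 ± 10.3 CPM (SD, n = 3) in weakly and 127 ± 12.4 CPM (SD, n = 2) in strongly adherent cells, a log2 fold change of 0.54 (SE 0.08, 95% interval 0.36 to 0.72, edgeR adjusted p = 0.0036), or 1.46-fold. Within dates the log2 difference was 0.60 on 6 March and 0.40 on 15 March. Leaving out the strongly adherent library of 6 March gave a log2 fold change of 0.44 and ended the call (adjusted p = 0.069), while it passed in the other alternatives run. In these bulk samples, more cells that make the transcript and more transcript per cell cannot be told apart.

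The heavy chain that SLC7A11 needs to reach the cell surface, SLC3A2, did not move with it. SLC3A2 had 523, 457 and 459 CPM in weakly adherent samples (6, 12 and 15 March) and 510 and 449 CPM in strongly adherent samples (6 and 15 March). The groups overlapped, and the log2 fold change was 0.00029 (95% interval -0.19 to 0.19). In both groups the library of 6 March was the highest.

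SLC7A5, the other main partner of SLC3A2 and the importer of leucine and other large neutral amino acids, lay lower in weakly adherent cells. It had 919, 854 and 892 CPM in weakly adherent samples (6, 12 and 15 March) against 1135 and 955 CPM in strongly adherent samples (6 and 15 March). The groups did not overlap, and the strongly adherent library of 6 March stood well above the others. The log2 fold change of -0.23 (SE 0.09) did not pass (edgeR adjusted p = 0.21). With the shared date as a block, where the library of 12 March has no partner, it was -0.20 and passed (adjusted p = 0.023). When the strongly adherent library of 6 March was left out, it was -0.11 (adjusted p = 0.85). Reads shared with pseudogene copies may be lost as not unique: of these, SLC7A5P2 had 1.09 to 1.32 CPM in weakly and 0.61 to 0.68 CPM in strongly adherent samples, and SLC7A5P1 at most 0.05 CPM.

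The small neutral amino acid transporters went both ways, none past the test. The glycine transporter SLC6A9 had 30.8, 30.6 and 29.1 CPM in weakly adherent samples (6, 12 and 15 March), against 26.2 and 22.7 CPM in strongly adherent samples (6 and 15 March). These did not overlap (log2 fold change 0.30 with SE 0.10, edgeR adjusted p = 0.15). Once the date was a block, SLC6A9 passed at 0.30 (adjusted p = 0.015). SLC38A1, a sodium-coupled glutamine importer, had 310, 350 and 332 CPM in weakly and 274 and 305 CPM in strongly adherent samples (0.19, adjusted p = 0.29). SLC1A5, the glutamine exchanger, had 361, 333 and 341 CPM in weakly and 410 and 372 CPM in strongly adherent samples (-0.18, adjusted p = 0.29). Its relative SLC1A4 had 13.5, 12.7 and 14.8 CPM in weakly and 16.2 and 15.5 CPM in strongly adherent samples (-0.21, adjusted p = 0.44). So the groups did not overlap for SLC38A1, SLC1A5 or SLC1A4, but the differences did not pass after adjustment over all genes tested. The cationic transporter SLC7A1 lay at 264 to 267 CPM in weakly and 276 to 287 CPM in strongly adherent samples (-0.08, adjusted p = 0.69), again without overlap. Over the 9 transporters the groups did not overlap for 7, or 77.8%, against 30.0% of all genes tested. Weakly adherent libraries were higher for 3 of these and lower for 4. In edgeR 5 of the 9, or 55.6%, had an unadjusted p under 0.05, against 14.2% of all genes.

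SLC38A2, which is induced by amino acid starvation, varied by date. It had 183, 266 and 257 CPM in weakly adherent samples (6, 12 and 15 March) and 197 and 244 CPM in strongly adherent samples (6 and 15 March). The libraries of 6 March were the lowest in both groups, and the groups overlapped (log2 fold change 0.09, 95% interval -0.31 to 0.50).

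Per kilobase of the longest annotated transcript, SLC3A2 had the highest mean level of the transporters in weakly adherent cells, 216 CPM per kb, with 216 CPM per kb in strongly adherent cells. SLC7A5 followed with 196 and SLC1A5 with 120 CPM per kb in weakly adherent cells, against 230 and 136 in strongly adherent cells. SLC7A11 was at 19.1 CPM per kb in weakly and 13.1 CPM per kb in strongly adherent cells, below SLC38A2, SLC38A1 and SLC7A1 and above SLC6A9 and SLC1A4. Which transcript the cells express is not known, and another transcript would shift these levels.

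**Figure D2:**
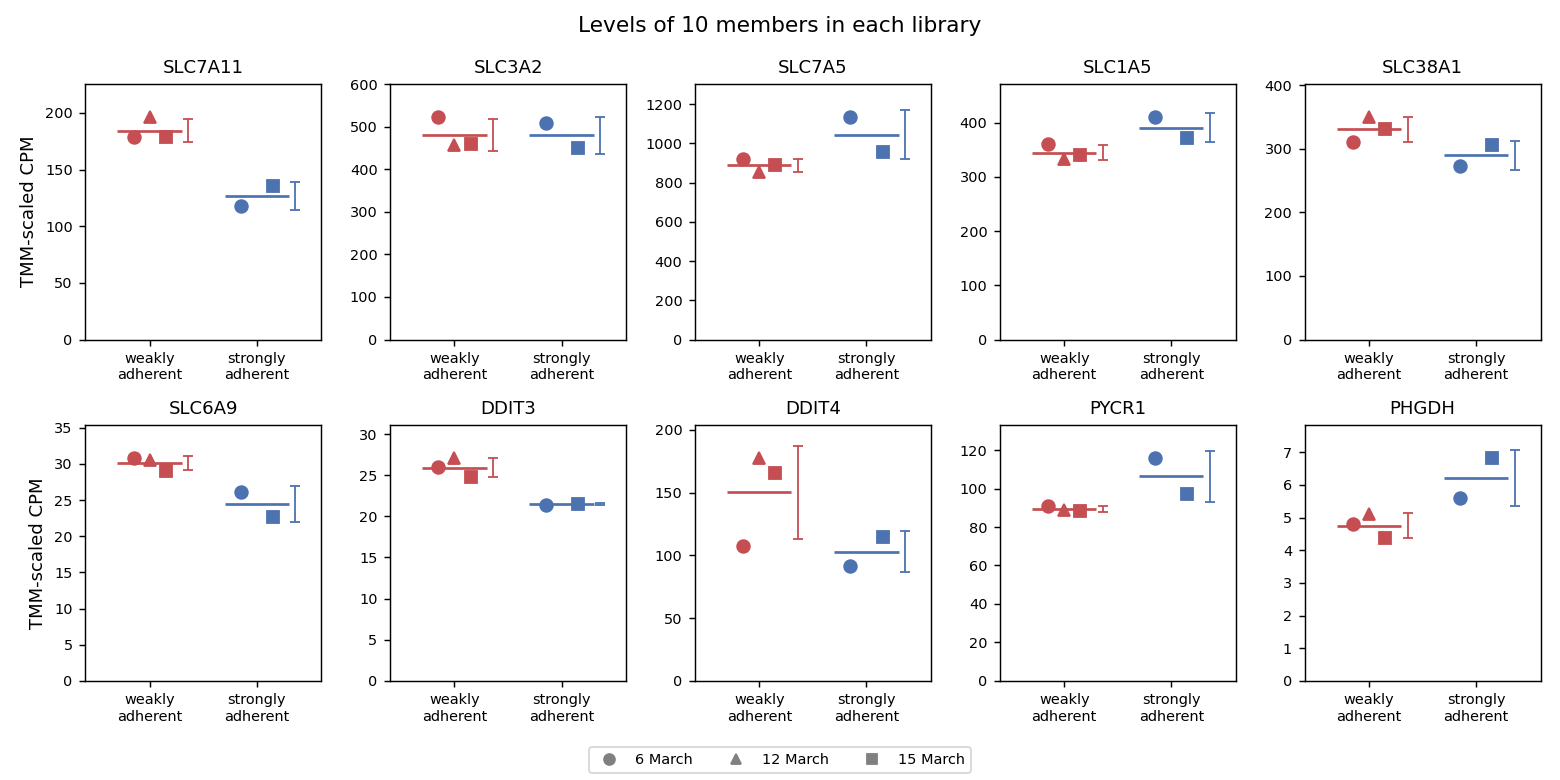
TMM-scaled CPM (y axis, from 0) of 10 genes in each library, weakly adherent left and strongly adherent right in each panel. Points are libraries with the date as the symbol, lines the means and bars ± 1 SD. SLC7A11 at 178 to 196 CPM in weakly adherent libraries lies clear of the strongly adherent ones at 118 and 135 CPM, SLC3A2 overlaps, and DDIT4 is lowest on 6 March in both groups.

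Of the transcription factors, none passed the test. ATF4 itself had 216, 216 and 190 CPM in weakly adherent samples (6, 12 and 15 March) and 202 and 178 CPM in strongly adherent samples (6 and 15 March), a log2 fold change of 0.12 (95% interval -0.06 to 0.31, edgeR adjusted p = 0.60). The groups overlapped. DDIT3, also known as CHOP, which acts in prolonged stress, had 26.0, 27.1 and 24.8 CPM in weakly and 21.4 and 21.5 CPM in strongly adherent samples. All 3 weakly adherent libraries were above both others, but the log2 fold change of 0.27 (SE 0.10) did not pass (adjusted p = 0.19).

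JDP2, a repressor of AP-1 sites, had 6.65, 8.48 and 8.50 CPM in weakly adherent samples against 9.04 and 10.2 CPM in strongly adherent samples (-0.29, SE 0.15, edgeR adjusted p = 0.42). CEBPB, a dimer partner of ATF4, had 41.5, 43.2 and 45.0 CPM in weakly and 46.5 and 49.0 CPM in strongly adherent samples (-0.14, adjusted p = 0.51). For JDP2 and CEBPB the groups did not overlap, with the weakly adherent libraries lower. With DDIT3 this makes 3 of the 6 transcription factors, or 50%, against 30.0% of all genes tested. CEBPG, another partner, at 52.6 to 56.7 CPM in weakly and 51.7 to 59.6 CPM in strongly adherent samples, overlapped. So did NUPR1, a stress-induced nuclear protein, whose 3 weakly adherent libraries at 3.04 to 3.27 CPM lay between the strongly adherent ones (-0.08, 95% interval -0.53 to 0.38).

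DDIT4, an inhibitor of the growth kinase complex mTORC1 that stress and glucocorticoids induce, differed by date as well as by group. It had 108, 177 and 165 CPM in weakly adherent samples (6, 12 and 15 March), against 91.7 and 114 CPM in strongly adherent samples (6 and 15 March). The libraries of 6 March were the lowest in each group, the weakly adherent one of that date lay below the strongly adherent one of 15 March, and so the groups overlapped. The log2 fold change was 0.54 (SE 0.22, edgeR adjusted p = 0.33), with differences of 0.23 on 6 March and 0.53 on 15 March. The date block compares only 6 and 15 March and borrows scatter from other genes. With it DDIT4 passed at 0.39 (adjusted p = 5.8e-07). When the weakly adherent library of 6 March was left out it passed at 0.73 (adjusted p = 0.0018), and with each of the others left out it was 0.39 to 0.71 and did not pass (adjusted p = 0.46 to 0.81).

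The classical stress effectors TRIB3 and CHAC1 overlapped between the groups. TRIB3, a pseudokinase that feeds back on ATF4, had 40.7, 38.7 and 37.4 CPM in weakly adherent samples and 39.2 and 37.5 CPM in strongly adherent samples (log2 fold change 0.02, 95% interval -0.17 to 0.21). CHAC1, which degrades glutathione, had 5.61, 9.65 and 7.73 CPM in weakly and 7.44 and 8.91 CPM in strongly adherent samples (-0.10, 95% interval -0.55 to 0.36). CHAC1 was lowest on 6 March within each group, as DDIT4 and SLC38A2 were.

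SESN2, a leucine-binding inhibitor of mTORC1, and VLDLR, a lipoprotein receptor, overlapped between the groups at 18.8 to 23.8 and 19.0 to 20.7 CPM in weakly and 18.7 to 20.0 and 17.8 to 20.2 CPM in strongly adherent samples. The secreted glycoprotein STC2 had 0.475, 0.817 and 0.409 CPM in weakly and 0.894 and 0.909 CPM in strongly adherent samples (-0.68, SE 0.37, edgeR adjusted p = 0.47), which rests on 9 to 20 reads per library. The NKG2D ligand ULBP1 and the activin chain INHBE had 1 read each over all libraries and were not tested.

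Enzymes of amino acid synthesis mostly lay slightly lower in weakly adherent cells, and none passed the test. Log2 fold changes were negative for 6 of the 8 tested, with a median of -0.12. For 5 of them, 62.5%, every weakly adherent library was below both strongly adherent ones, against 14.5% of all genes. PYCR1, which makes proline in mitochondria, had 91.2, 88.9 and 88.1 CPM in weakly adherent samples (6, 12 and 15 March) and 116 and 97.1 CPM in strongly adherent samples (6 and 15 March). Its log2 fold change was -0.25 (SE 0.08, edgeR adjusted p = 0.16), and -0.24 with the date block, where it passed (adjusted p = 0.0058). When the strongly adherent library of 6 March was left out, the value for PYCR1 was -0.12 (adjusted p = 0.79).

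PHGDH, the first enzyme of serine synthesis, was scarce here, with 4.80, 5.11 and 4.36 CPM in weakly and 5.60 and 6.82 CPM in strongly adherent samples (-0.39, SE 0.16, edgeR adjusted p = 0.30). The next enzyme, PSAT1, had 134, 137 and 136 CPM in weakly and 144 and 150 CPM in strongly adherent samples (-0.12, adjusted p = 0.51). The last, PSPH, had 34.9 to 35.9 CPM in weakly and 34.8 to 35.5 CPM in strongly adherent samples (0.01, 95% interval -0.17 to 0.20). Per kilobase of transcript PHGDH reached 1.84 CPM in weakly and 2.40 CPM in strongly adherent cells, against 62.0 and 67.2 for PSAT1.

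MTHFD2, of mitochondrial folate metabolism, had 55.4, 61.7 and 56.6 CPM in weakly and 62.7 and 64.6 CPM in strongly adherent samples (-0.14, edgeR adjusted p = 0.52). SHMT2, which splits serine into glycine and a one-carbon unit, had 198, 182 and 176 CPM in weakly and 214 and 188 CPM in strongly adherent samples (-0.12, adjusted p = 0.62). The groups overlapped for SHMT2 but not for MTHFD2. ALDH18A1, which starts proline synthesis, lay at 120 to 121 CPM in weakly and 123 to 126 CPM in strongly adherent samples (-0.05, adjusted p = 0.86).

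Asparagine synthetase, ASNS, the classical ATF4 target whose element is shown above, had 93.9, 72.9 and 76.1 CPM in weakly adherent samples and 76.4 and 79.8 CPM in strongly adherent samples. Only the weakly adherent library of 6 March stood above the rest, so the difference was 0.30 on 6 March and -0.07 on 15 March, and over both groups 0.05 (95% interval -0.18 to 0.28). ALDH1L2, a mitochondrial folate enzyme, had 5 to 8 reads in each library and was not tested.

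Genes of tRNA charging and export differed least of the 5 classes, with a median size of log2 fold change of 0.02. Their log2 fold changes ran from -0.07 for WARS to 0.03 for AARS with a median of -0.02, and the 95% intervals reached from -0.22 to 0.21 at most. None of the 8 had an unadjusted p under 0.05, against 14.2% of all genes. WARS, which charges tryptophan tRNA, had 166, 151 and 158 CPM in weakly adherent samples and 161 and 170 CPM in strongly adherent samples (-0.07, SE 0.07, edgeR adjusted p = 0.80). MARS, for methionine, had 186, 173 and 169 CPM in weakly and 184 and 176 CPM in strongly adherent samples (-0.03, SE 0.07, adjusted p = 0.93). AARS, for alanine, had 160, 139 and 137 CPM in weakly and 147 and 138 CPM in strongly adherent samples (0.03, SE 0.08, adjusted p = 0.94).

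GARS, SARS and YARS, for glycine, serine and tyrosine, were at 313 to 372, 233 to 269 and 189 to 224 CPM in weakly and 330 to 356, 251 to 253 and 191 to 219 CPM in strongly adherent samples. EPRS, for glutamate and proline, and the exporter XPOT were at 278 to 297 and 177 to 185 CPM in weakly and 281 to 289 and 175 to 181 CPM in strongly adherent samples. All 8 overlapped between the groups, while 30.0% of all genes tested did not.

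The shared dates were compared by the sign of each difference, which also counts values near 0. PSPH had 0.0038 on 6 March and 0.0039 on 15 March, and SLC3A2 had 0.037 and 0.031. The differences of both dates had the same sign in 23 of the 37 genes, or 62.2%, against 62.8% of all genes tested, a share near the background. By role it was 8 of 9 transporters, 7 of 8 synthesis enzymes, 4 of 6 transcription factors, 4 of 6 effectors and 0 of 8 genes of tRNA charging and export. For those 8, every difference was positive on 6 March, from 0.02 to 0.12, and negative on 15 March, from -0.11 to -0.0042. Their summed level was 1859, 1686 and 1654 CPM in weakly adherent samples (6, 12 and 15 March) and 1776 and 1726 CPM in strongly adherent samples (6 and 15 March), so that each group was highest on 6 March. With the date as a block, which leaves 1 residual degree of freedom, 5 of the 37 genes passed, or 13.5%, against 11.5% of all genes. In that fit the weakly adherent library of 12 March has no partner and adds nothing to the group difference. Its p-values draw on the scatter of other genes, beyond that of the gene itself. SLC7A11, SLC6A9 and DDIT4 were higher, against a background of 6.20%, and SLC7A5 and PYCR1 lower, against 5.28%.

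**Figure D3:**
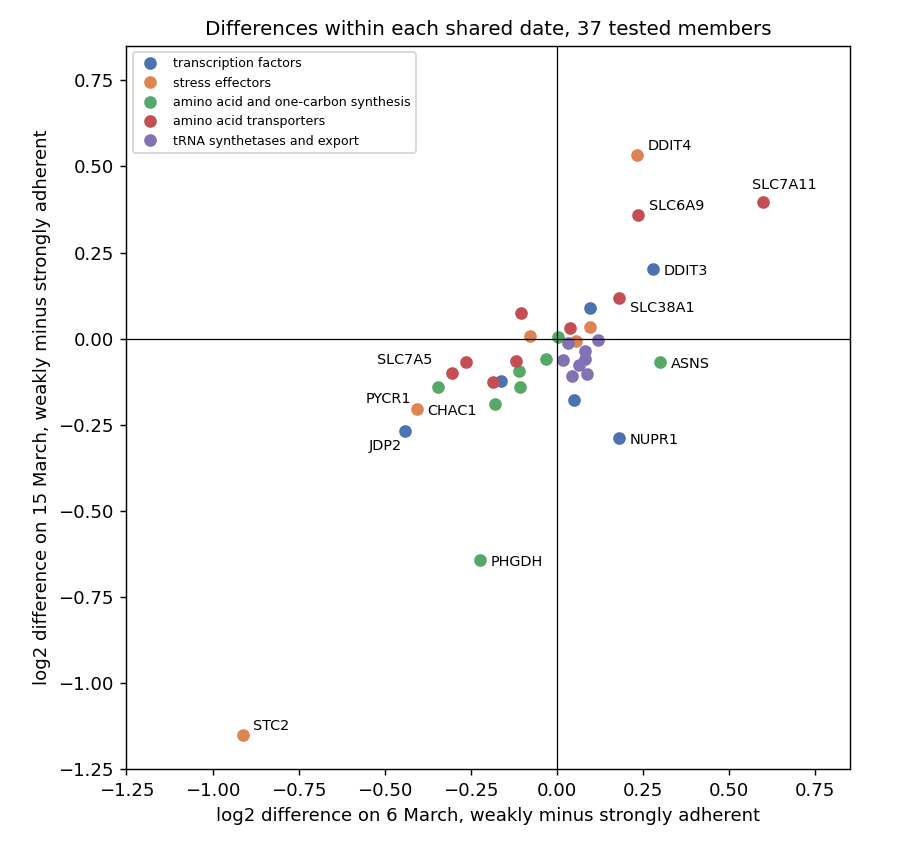
Each point is 1 of the 37 tested genes, with its log2 difference between weakly and strongly adherent libraries on 6 March (x axis) and on 15 March (y axis), coloured by role. SLC7A11 lies at 0.60 and 0.40, STC2 lies far below at few reads, and the 8 genes of tRNA charging and export sit together to the right of 0 on 6 March and below 0 on 15 March.

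**Figure D4:**
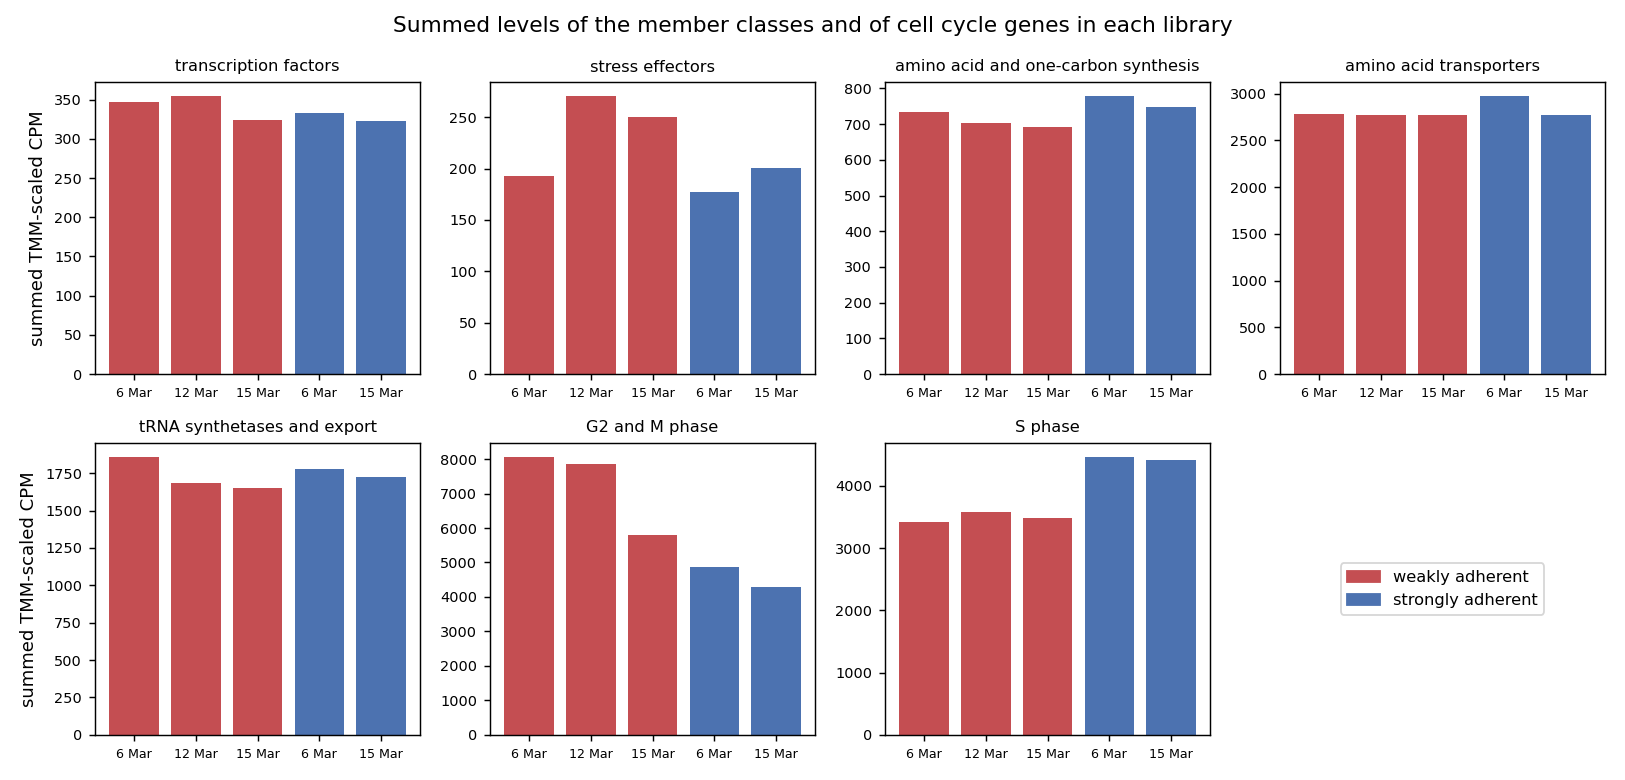
Summed TMM-scaled CPM (y axis, from 0) of each class of genes, and of 20 G2 and M phase and 20 S phase genes, in each library, weakly adherent on the left. The G2 and M sum is 5796 to 8061 CPM in weakly and 4287 to 4875 CPM in strongly adherent libraries, and that of amino acid and one-carbon synthesis is 693 to 734 CPM in weakly and 747 to 778 CPM in strongly adherent libraries, while the sums of the other 4 classes of the 40 genes overlap.

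Of 202 other tested genes of the pathway, edgeR called 2 higher and 1 lower, against 1.77% and 0.918% of all genes tested. Of 20 tested genes upstream of ATF4 or in feedback on it (eIF2 kinases, eIF2 and eIF2B subunits, phosphatase subunits), 0 passed in edgeR. Of these 1, or 5%, had an unadjusted p under 0.05, against 14.2% of all genes, and 1 was lower with the date block, against 5.28%. That gene was PPP1R15A, the stress-induced subunit that takes the phosphate off eIF2, with 250, 230 and 219 CPM in weakly and 279 and 265 CPM in strongly adherent samples (-0.22, adjusted p = 0.18, or 0.012 with the date block). Of 39 other ATF4-related factors and targets 1 was called higher and 1 lower, beside 1.77% and 0.918% of all genes, with a median of 0.02. The angiogenic factor VEGFA had 392, 452 and 406 CPM in weakly adherent samples against 306 and 324 CPM in strongly adherent samples (0.40, SE 0.08, adjusted p = 0.019), and the growth arrest gene GADD45A had 47.7, 39.5 and 43.7 CPM in weakly adherent samples against 60.3 and 55.1 CPM in strongly adherent samples (-0.40, SE 0.10, adjusted p = 0.044).

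Of 38 genes of amino acid sensing at mTORC1, 1 passed, against 2.68% of all genes tested. SESN3, a relative of SESN2, had 4.75, 5.67 and 4.45 CPM in weakly adherent samples against 2.68 and 2.50 CPM in strongly adherent samples (0.93, SE 0.19, edgeR adjusted p = 0.023), and 4 genes of this list, or 10.5%, were higher with the date block, against 6.20% of all genes. The sizes for VEGFA, GADD45A and SESN3 held with each library left out in turn (log2 fold changes 0.34 to 0.45, -0.47 to -0.34 and 0.83 to 1.01), but several of these fits did not pass. Their adjusted p, in this order, was 0.095, 0.16 and 0.076 when the weakly adherent library of 12 March was left out, 0.21, 0.31 and 0.13 when the strongly adherent one of 6 March was, and 0.067, 0.073 and 0.15 when that of 15 March was. GADD45A also had 0.13 when the weakly adherent library of 15 March was omitted.

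In the other lists edgeR, DESeq2 and limma-voom called 0 genes without the date block. Of 31 further genes of serine, glycine, folate and proline metabolism 7 had a positive log2 fold change, or 22.6%, against 49.8% of all genes, and the median was -0.08. An unadjusted p under 0.05 was reached by 8 of the 31, or 25.8%, against 14.2% of all genes, and with the date block 2 were higher and 3 lower, together 16.1% against 11.5%. The smallest p was that of MTHFD1, the cytosolic folate enzyme, with 259, 258 and 237 CPM in weakly and 302 and 293 CPM in strongly adherent samples (-0.24, adjusted p = 0.12, or 0.0009 with the date block). Of 26 genes of the XBP1 and ATF6 arms of the unfolded protein response 3, or 11.5%, had an unadjusted p under 0.05 against 14.2% of all genes. They were led by the chaperone partner SDF2L1 (-0.38, adjusted p = 0.14, or 0.0054 once the date was a block). With the block 1 of the 26 was higher and 2 lower, together 11.5%, against 11.5% of all genes. Of 23 further amino acid transporters 2, or 8.70%, had an unadjusted p under 0.05, against 14.2% of all genes. The smallest was that of the taurine transporter SLC6A6 (0.18, adjusted p = 0.32, or 0.0062 with the block). In the fit with the block 1 of the 23 was higher, or 4.35%, against 6.20% of all genes.

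The tRNA synthetases outside the 40 genes also gave no call in edgeR, which called 2.68% of all genes. Of 17 other cytosolic synthetases and their scaffold proteins 0 reached an unadjusted p under 0.05, against 14.2% of all genes, and the median log2 fold change was -0.03. The smallest p was that of FARSA, for phenylalanine (-0.11, edgeR adjusted p = 0.65). Among 17 mitochondrial synthetases 1, or 5.88%, reached an unadjusted p under 0.05, against 14.2% of all genes. This was MARS2, with 20.1, 17.7 and 19.2 CPM in weakly adherent samples against 26.3 and 24.1 CPM in strongly adherent samples (-0.41, SE 0.10, adjusted p = 0.059, or 0.005 once the date was a block). The median over these 17 was -0.03.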

How the data were processed

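RNA of 3 weakly and 2 strongly adherent samples was sequenced from a stranded kit as 50 bp single-end reads, per the labels' protocols. STAR, HTSeq, cutadapt, FastQC, DESeq2 and the build hg19 stand, without versions, in the submitters' processing notes. No annotation or strand setting is stated, so overlapping and antisense genes may share reads. The authors deposited raw counts per gene symbol and log2 values, which equal log2(count / size factor + 1) within 0.00052 reads as tested on the file. The 5 HTSeq summary rows were left out of every fit. Of uniquely aligned reads, 7.96% to 9.84% hit no counted feature and 1.34% to 1.43% were ambiguous. Of all reads, 1.74% to 3.02% did not align and 16.0% to 16.8% aligned to several places.

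Counts were tested over all 13297 genes kept by filterByExpr with edgeR 4.0.16 in R 4.3.3 (TMM, robust quasi-likelihood F test, threshold 0.05 after Benjamini-Hochberg adjustment, 3 residual degrees of freedom). SEs and 95% intervals follow from the F statistic and cover the spread between these libraries. Its variances and degrees of freedom are moderated with those of the other genes tested, so the intervals do not rest on the residual degrees of freedom alone. The common biological coefficient of variation was 7.91%. Alternatives used DESeq2 1.42.0, limma 3.58.1, other filters, pseudocounts of 1 and 5, the date as a block, a spline of 5 degrees of freedom in coding length (known for 11762 tested genes, 88.5%, from GENCODE 29 by symbol), and each library left out.

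Libraries of 1 date count as pairs, since sample titles carry dates; within pairs, deviations from the group mean had correlations of 0.34 (6 March) and 0.20 (15 March), against 0.16 for the weakly adherent library of 12 March with the strongly adherent one of 15 March. A group of 2 has deviations that are equal and opposite, so the pairing rests on the dates and not on these values. Replicates differed beyond counting noise (chi-square over its degrees of freedom 7.50 to 12.6). Genes and lists were chosen with earlier results of these data known. Named with the value of each library were called genes and, by class, the 2 with the smallest p; the other genes of the 40 that are given library by library were chosen after their values were seen. From other lists, called genes (at most 4 a list) or else the gene with the smallest p were named. Promoter windows were matched by symbol through Ensembl IDs. Figures used matplotlib 3.10.9.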

Additional observations from a re-analysis of the deposited data

How the results depend on the processing

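SLC7A11 was higher in every alternative run (log2 fold change 0.44 to 0.65), and passed in each except the one without the strongly adherent library of 6 March. Genes called over the whole table were 235 higher and 122 lower, against 825 and 702 with the date block, 539 and 667 with the block and the coding-length trend removed, 111 higher with that trend alone removed, and 203 lower with no filter on low counts. With 1 library left out they ranged from 82 to 238 higher and 34 to 103 lower. Of the 40 genes, 3 were called higher and 2 lower with the block, with or without the length trend, and 0 to 2 higher with 1 library left out (0 without the strongly adherent library of 6 March). Other pathway genes gave 2 higher calls and 1 lower, 10 and 8 with the block, 9 and 8 with block and length trend, 2 lower with no filter, and 0 to 4 higher and 0 to 1 lower with 1 library left out.

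Uncalled genes near 0 changed sign in some alternatives; the cause was not tested. SLC3A2 was -0.0020 with DESeq2's size factors, -0.0030 in DESeq2's Wald test, -0.0018 with no filter and -0.0028 with the length trend removed. With the block, SESN2 was -0.035, SLC38A2 -0.013, YARS 0.0095 and EPRS 0.010, and with block and length trend SESN2 -0.022, SLC38A2 -0.0055 and YARS 0.013. With 1 library left out the ranges across 0 were -0.136 to 0.075 (CEBPG), -0.333 to 0.248 (NUPR1), -0.011 to 0.057 (TRIB3), -0.294 to 0.084 (CHAC1), -0.037 to 0.147 (SESN2), -0.021 to 0.169 (VLDLR), -0.067 to 0.122 (ASNS), -0.084 to 0.093 (SLC3A2), -0.056 to 0.265 (SLC38A2), -0.011 to 0.045 (XPOT), -0.042 to 0.079 (AARS), -0.097 to 0.036 (GARS), -0.091 to 0.019 (SARS), -0.072 to 0.0035 (MARS), -0.103 to 0.088 (YARS) and -0.031 to 0.025 (EPRS). Other ranges were looked at among genes with a log2 fold change above 0.1 in size. Those with an end over 1.5 times larger or smaller than the value with all libraries were 0.04 to 0.21 (ATF4), -0.38 to -0.18 (JDP2), -1.02 to -0.48 (STC2), -0.52 to -0.23 (PHGDH), -0.204 to -0.020 (SHMT2), -0.37 to -0.12 (PYCR1), -0.35 to -0.11 (SLC7A5), -0.25 to -0.11 (SLC1A5) and 0.11 to 0.28 (SLC38A1). With 1 strongly adherent library left, it is assumed to vary like the others. Counts of 1 to 8 reads limit ULBP1, INHBE and ALDH1L2.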

Other observations

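A list of 21 genes of glutathione synthesis and NRF2 targets was added after the value of SLC7A11 was seen, and is a description only. In edgeR 0 of the 21 passed, 0 had an unadjusted p under 0.05 and 0 passed with the date block. Their median log2 fold change was -0.02, from -0.21 to 0.14. GCLC, the catalytic subunit of the enzyme that joins cysteine to glutamate, averaged 47.9 ± 2.45 CPM in weakly and 48.3 ± 2.50 CPM in strongly adherent cells (SD, n = 3 and 2), and GCLM, its modifier subunit, 167 ± 23.6 CPM in weakly and 170.4 ± 11.9 CPM in strongly adherent cells. TXNRD1, thioredoxin reductase, averaged 900.0 ± 102 CPM in weakly and 1042 ± 114 CPM in strongly adherent cells, and the groups overlapped.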
